A study of Oncorhynchus mykiss with 6 samples.

Results

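Glutathione transferase genes, the NRF2 inhibitor gene keap1b and the sestrin gene sesn2 were examined in liver RNA-seq libraries of rainbow trout (Oncorhynchus mykiss). Members were the rows of the deposited table whose symbol, case ignored, starts with gst followed by a letter or is keap1b or sesn2, which gave 10 of the 5045 listed rows. Control livers were kept at 18 °C and heat livers at 24 °C over 8 h, per the labels, which give 3 libraries of each and no genotype, strain, age or sex. The labels word the exposure as that of the liver and do not say that libraries came from separate fish, so the spread behind each p-value is that between libraries and could be technical in part or whole. Only rows past the authors' thresholds are in the table, with log2 fold changes in the authors' deposited table above 1 or below -1. Every member had thus been selected as changed, and transferase genes outside the table were not analysed here.

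Glutathione transferases join the tripeptide glutathione to reactive, electrophilic compounds, which makes these compounds more soluble and easier to export, and the vertebrate liver is rich in them. In mammals and zebrafish many of these genes are targets of the transcription factor NRF2, which the adaptor KEAP1 holds at a low level by presenting it to a cullin ubiquitin ligase. Sestrins are stress-induced proteins that, in mammals, restrain the growth-promoting kinase complex mTORC1 when amino acids are scarce or the cell is stressed.

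There were 7 glutathione transferases among the members, beside keap1b, sesn2 and a row with the symbol GSTENG00. Each symbol stood in 1 row, so no member had a second row under its own symbol. Copies of keap1b, sesn2 or Gstz1 under another symbol or none were not looked for. The transferases were GSTP1 of the pi class, gstr of the rho class found in fish, gsto1 of the omega class, gstt2 of the theta class, GSTA1 and GSTA2 of the alpha class, and Gstz1 of the zeta class. The description of the first 6, cut after 8 characters, begins with the letters of glutathione, and that of Gstz1 begins with those of maleylacetoacetate. GSTENG00 met the rule by its letters alone. Its cut description begins with "small me", it has no KEGG ortholog, and it is not counted as a transferase. Reads of near-identical transferase copies could be split between genes, so levels of the alpha-class genes in particular are uncertain.

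All 7 transferases were lower in heat, between 2.02-fold and 2.40-fold, while keap1b was 2.10-fold higher and sesn2 33.8-fold higher. With median-of-ratios scaling of libraries the rises were 1.13-fold and 18.2-fold, and the transferases were lower by larger folds. That scaling takes the typical listed row as unchanged, although every listed row had been selected as changed. Each of the 10 members passed limma-voom, a linear model of log2 counts, at a Benjamini-Hochberg adjusted p under 0.05 over all tested rows. So did each of the 4766 rows with at least 10 counts in 3 libraries (100%), with 58.1% higher and 41.9% lower in heat, or 2770 and 1996 rows. With median-of-ratios scaling these were 1733 and 1996. The passing of the members is therefore a property of the table and not a result about them. For none of the 10 members did the FPKM ranges of control and heat overlap, which held for 99.5% of tested rows, 57.9% being higher and 41.6% lower in heat without overlap.

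GSTP1, whose product conjugates electrophiles and lipid peroxidation products, was the most abundant member. Its level in FPKM, which scales reads by transcript length and library depth, was 580.0, 596 and 629.7 in control replicates 1 to 3 and 277, 250.4 and 253 in heat replicates 1 to 3. Every heat library lay below every control library, and the spread within each group was small against the gap. The log2 fold change was -1.20 ± 0.04 (SE, limma-voom adjusted p = 1.78e-31), from a mean of 601.9 ± 25.4 to 260.3 ± 14.9 FPKM (SD, n = 3 per group). By mean FPKM it stood at place 13 of the 5045 listed rows in control and at place 47 in heat.

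For gstr, the fish rho-class enzyme and the second most abundant member, levels were 329, 321 and 355 FPKM in control and 167, 151 and 152 FPKM in heat. As for GSTP1, the highest control library was replicate 3 and the highest heat library was replicate 1. The log2 fold change was -1.09 ± 0.05 (SE, limma-voom adjusted p = 7.32e-26). The omega-class gene gsto1, whose product reduces dehydroascorbate and protein-bound glutathione rather than mainly conjugating, had 115, 118 and 127 FPKM in control. In heat it had 58.6, 59.7 and 59.2 FPKM, the tightest heat group among the members, with a coefficient of variation of 0.947%. Its log2 fold change of -1.02 ± 0.06 (SE, adjusted p = 6.23e-21) was the smallest fall among the transferases, and in the authors' deposited table, at -1.02, it lay just inside the threshold of 1.

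The theta-class gene gstt2 and the alpha-class gene GSTA2 stood at nearly the same level. Levels of gstt2 were 63.0, 67.1 and 65.1 FPKM in control and 28.1, 28.7 and 26.9 FPKM in heat. Those of GSTA2 were 60.4, 67.0 and 60.3 FPKM in control and 27.9, 27.4 and 26.5 FPKM in heat. Within each of the 6 libraries gstt2 was slightly the higher of the pair, although their ranges overlapped in both groups. Neither gene's control and heat libraries overlapped. Log2 fold changes were -1.22 ± 0.08 for gstt2 and -1.19 ± 0.07 for GSTA2 (SE, limma-voom adjusted p of 4.56e-20 and 1.87e-21).

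The second alpha-class gene, GSTA1, had 41.8, 44.6 and 44.3 FPKM in control and 24.2, 18.9 and 21.1 FPKM in heat. Its heat libraries were more scattered than its control libraries, with coefficients of variation of 12.4% and 3.57%. On the log2 scale the fold change was -1.02 ± 0.09 (SE, limma-voom adjusted p = 1.13e-14), and it ranged from -0.94 without heat replicate 2 to -1.13 without heat replicate 1. The least abundant transferase was Gstz1, which encodes maleylacetoacetate isomerase, an enzyme of tyrosine breakdown. It had 12.9, 13.3 and 14.5 FPKM in control and 6.50, 6.85 and 3.83 FPKM in heat. Heat replicate 3 was the low library of the heat group for Gstz1, with 80 reads. The log2 fold change was -1.26 ± 0.15 (SE, limma-voom adjusted p = 1.39e-10), and -1.02 without that library.

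**Figure D1:**
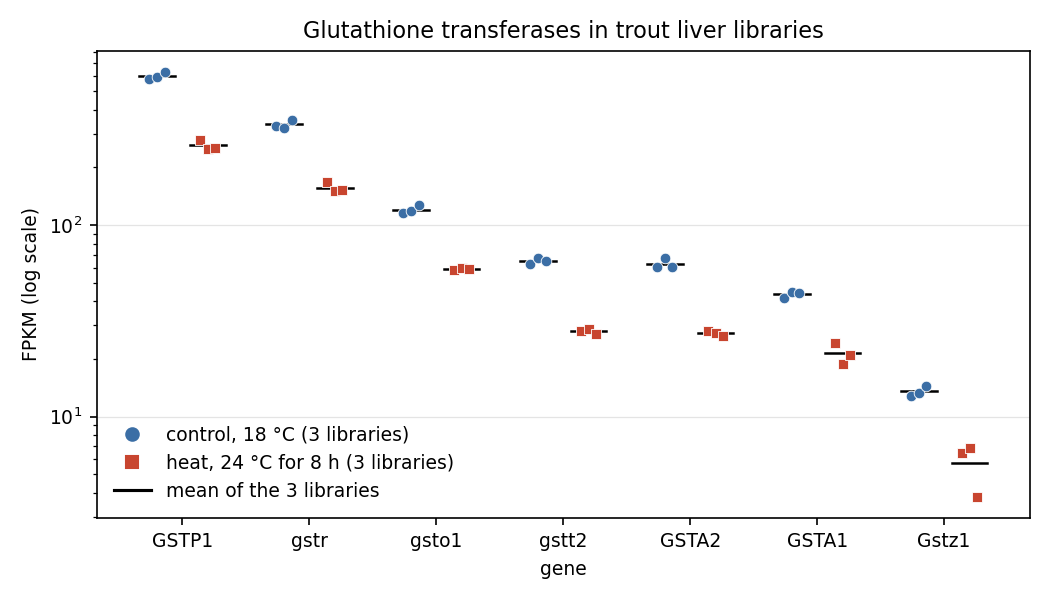
FPKM (log scale) of the 7 glutathione transferases in each library, with control libraries as circles, heat libraries as squares and the mean of 3 libraries as a line. For each gene the 3 heat libraries lie below the 3 control libraries, from GSTP1 at 601.9 to 260.3 FPKM down to Gstz1 at 13.5 to 5.73 FPKM.

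Because FPKM is per length, the transferases can be added. Their sum was 1202, 1227 and 1296 FPKM in the control libraries and 589.6, 543 and 543 FPKM in the heat libraries. The sum was thus 2.22-fold lower in heat, and the groups did not overlap. An exact two-sided permutation test gave p = 0.1, the smallest p that 3 against 3 libraries allow. Each summed row had been selected as changed and was itself lower in heat without overlap. The lack of overlap of the sum, and with it this p, was therefore fixed in advance and is no further evidence. GSTP1 made up 48.5% ± 0.206 of the sum in control and 46.6% ± 0.487 in heat (SD, n = 3), and gstr 27.0% ± 0.708 and 28.1% ± 0.225. The share of gsto1 went from 9.65% ± 0.111 to 10.6% ± 0.587. The total of these rows fell while their make-up moved by at most 2 percentage points for any gene. The sum leaves out the membrane-bound MGST3 and every transferase that was not listed as changed. It therefore does not give the make-up of all transferases of the liver.

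Differences between members were compared as the log2 ratio of their FPKM in each library, which does not depend on how libraries are scaled. Of the 21 pairs of transferases, 5 had ratios that did not overlap between groups, against 64.4% of all 45 pairs of members. The 5 were GSTP1 with gstr, gsto1 and GSTA1, and gsto1 with GSTA2 and gstt2. Differences in log2 ratio between heat and control within the transferases ran from 0.01 to 0.27, and for GSTP1 over gsto1 the ratio went from 2.33 to 2.14. No pair passed the exact permutation test adjusted over the 45 pairs (smallest adjusted p = 0.155), which 3 against 3 libraries could not do. All 24 pairs that held keap1b, sesn2 or GSTENG00 had ratios that did not overlap. For a transferase with keap1b or sesn2 this was largely set by the authors' thresholds, which had chosen the rows as changed in opposite directions. The 64.4% of all pairs includes such pairs, so it is no neutral background for the transferases.

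The gene keap1b encodes a fish copy of the NRF2 inhibitor KEAP1. Its levels were 8.47, 8.00 and 7.41 FPKM in control and 15.0, 18.4 and 17.1 FPKM in heat. All heat libraries exceeded all control libraries, with heat replicate 1 the lowest of them. The log2 fold change was 1.07 ± 0.08 (SE, limma-voom adjusted p = 2.07e-17), from 7.96 ± 0.531 to 16.8 ± 1.70 FPKM (SD, n = 3 per group). Only 7.76% of the tested rows that were higher in heat had a smaller rise than keap1b.

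The size of the keap1b rise depended on how libraries were scaled. In the main scaling, each library's total was worked out from its counts and FPKM values, and the median over tested rows was a log2 fold change of 1.13. Median-of-ratios scaling, which takes the typical listed row as unchanged, moved that median by -0.89. That of keap1b was then 0.18 on the log2 scale (limma-voom adjusted p = 0.0346), and it was 0.54 with TMM scaling and 0.34 with scaling by the sum over listed rows. These other scalings drew on the listed rows alone, each selected as changed and more of them higher than lower in heat. Each moved all members down by nearly the same amount, so its values are no separate estimates of each change. The main scaling rests instead on the library totals behind the FPKM values. Relative to the median tested row, keap1b was at -0.06 under the main scaling. That median is taken over rows that rose and rows that fell together. Over the rows higher in heat alone the median was 1.61, so the rise of keap1b was small among the rises. Under median-of-ratios scaling the transferases had log2 fold changes from -2.16 to -1.91, and relative to the median tested row they stood between -2.39 and -2.15 under the main scaling. Over the rows lower in heat alone the median was -1.47, against -1.19 for the transferases. Of those rows, between 3.26% (for gsto1) and 30.1% (for Gstz1) had a smaller fall, so the transferase falls were among the smaller ones.

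**Figure D2:**
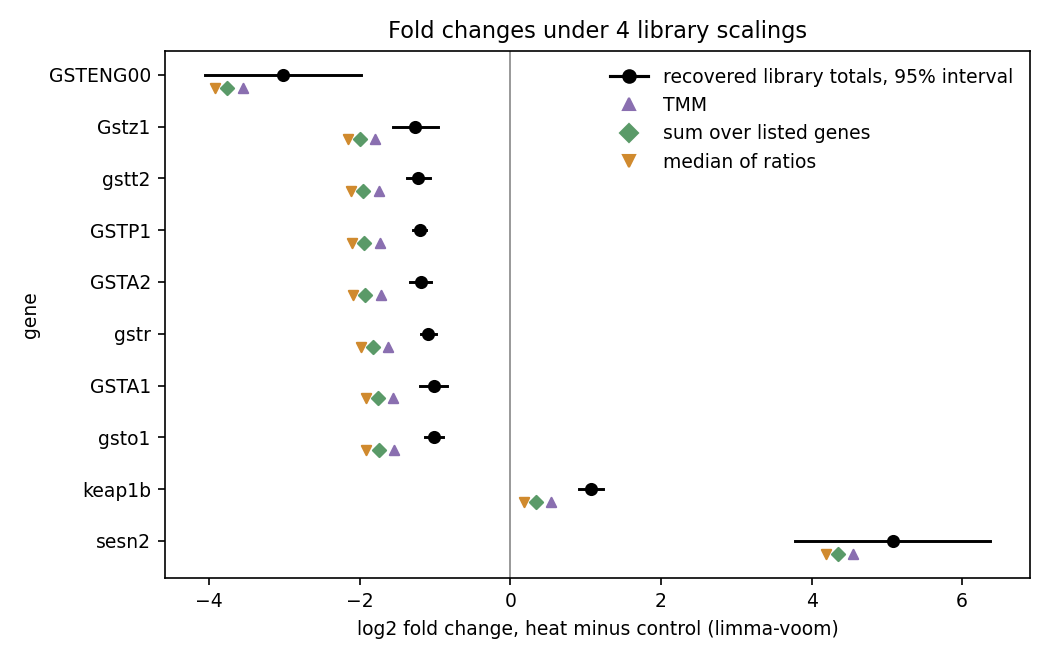
Heat minus control log2 fold change of each member from limma-voom with recovered library totals (circles, with 95% intervals as lines) and with 3 other library scalings (coloured symbols without intervals). Every transferase stays below 0 and sesn2 above 0 under each scaling, and keap1b comes closest to 0, at 0.18 with median-of-ratios scaling.

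The sestrin gene sesn2 was barely detected in control liver. It had 1, 4 and 5 reads in control replicates 1 to 3 and 150, 131 and 154 reads in heat replicates 1 to 3. In FPKM these were 0.028, 0.078 and 0.149 against 2.09, 2.545 and 3.375. The lowest heat library was far above the highest control library. Its log2 fold change was 5.08 ± 0.65 (SE, limma-voom adjusted p = 7.72e-10). With so few control reads the size is imprecise, and the exact 95% interval for the ratio of summed reads at equal library totals, which covers counting error only, ran from 18.3 to 71.5. The rise was 23.5-fold with TMM scaling, 20.4-fold with scaling by the sum over listed rows and 18.2-fold with median-of-ratios scaling. Leaving out control replicate 1 gave a log2 fold change of 4.51, and leaving out control replicate 3 gave 5.43. Among tested rows higher in heat, 97.0% had a smaller rise. The length that count and FPKM imply for sesn2 varied 1.57-fold between libraries. It varied 1.14-fold for GSTENG00, also low in reads, and at most 1.01-fold for keap1b and the transferases. The extremes for sesn2 were control replicates 2 and 3, with only 4 and 5 reads. Relative to its mean over libraries, the implied length ran from 0.964 to 1.11 in the heat libraries. The FPKM values of sesn2 thus carry an added uncertainty, and whether its counts share it was not tested.

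The related sestrin gene sesn1 went the opposite way in both of its listed rows, which do not meet the membership rule. The more abundant copy had 12.4, 13.2 and 12.8 FPKM in control and 3.67, 3.69 and 4.34 FPKM in heat, a 3.30-fold fall (limma-voom adjusted p = 4.73e-23). The other copy fell 4.59-fold, from 4.89 ± 0.146 to 1.08 ± 0.142 FPKM (SD, n = 3, limma-voom adjusted p = 3.60e-18). Summed over the 3 rows, sestrin levels were 17.1 to 18.2 FPKM in control and 6.82 to 8.66 FPKM in heat (exact two-sided permutation p = 0.1, the smallest possible). Among these listed rows the rise of sesn2 therefore did not make up for the fall of sesn1 in transcript level. Both sesn1 rows had been selected as changed and made up most of the sum. Its fall and this p were thus largely set by that selection. Sestrin genes that were not listed were not analysed here, so the total sestrin level of the liver is unknown. As a share of that sum, sesn2 went from 0.474% ± 0.335 to 34.6% ± 4.21 (SD, n = 3).

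GSTENG00, the row that met the rule by its letters, was low throughout. It had 30, 53 and 55 reads in control and 14, 4 and 4 in heat, or 0.585, 1.005 and 1.10 FPKM against 0.193, 0.073 and 0.076 FPKM. Heat replicate 1 was the highest heat library and still lay below control replicate 1, the lowest control library. Its log2 fold change was -3.02 ± 0.52 (SE, limma-voom adjusted p = 6.72e-07), or -3.52 without heat replicate 1.

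**Figure D3:**
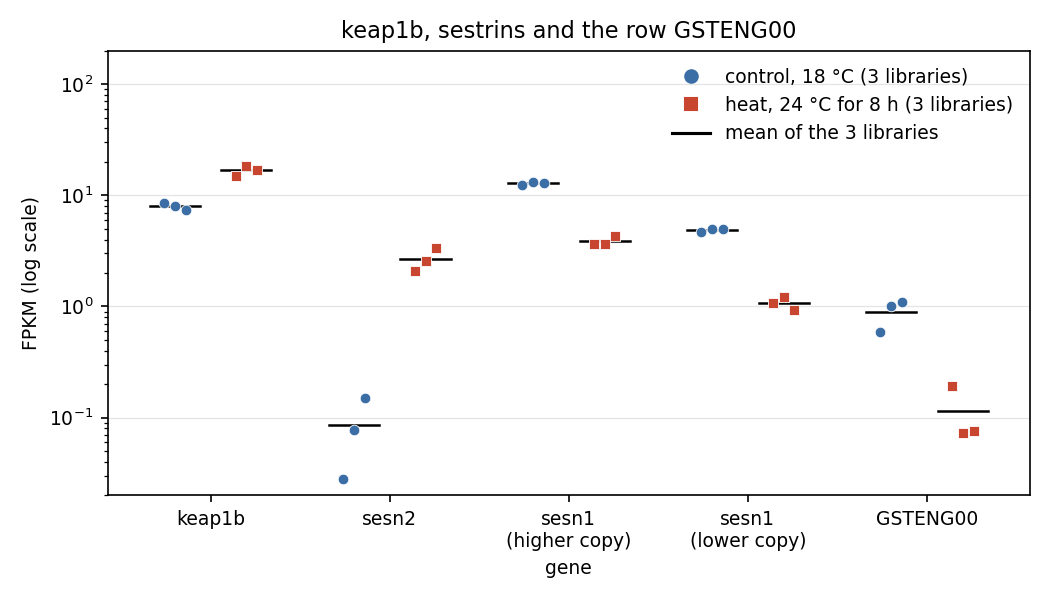
FPKM (log scale) of keap1b, sesn2, both listed copies of sesn1 and GSTENG00 in each library, with control libraries as circles, heat libraries as squares and the mean of 3 libraries as a line. Heat libraries lie above control libraries for keap1b and sesn2 and below them for both sesn1 copies and GSTENG00.

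Other genes of KEAP1-NRF2 regulation were higher in heat without exception among the listed rows. These rows include several copies of the same gene, among them NFE2L1, MAFK, maff, Bach1 and Sqstm1, so they stand for fewer genes than rows. All 17 tested rows besides keap1b rose, beside 58.1% of all tested rows, with a median log2 fold change of 2.38 against 1.13 for all tested rows, and 14 of them passed as higher with median-of-ratios scaling. Sqstm1, the autophagy receptor that competes with NRF2 for KEAP1, rose from 73.8 ± 4.74 to 528 ± 21.6 FPKM (SD, n = 3), and its second copy sqstm1 rose 3.02-fold. A copy of NFE2L1, an endoplasmic reticulum-bound relative of NRF2, rose from 0.483 ± 0.0522 to 12.3 ± 0.622 FPKM, and maff, a small MAF partner of these factors, rose 5.63-fold. Named after their values were seen, CUL3, the cullin that KEAP1 works with, rose 2.29-fold, and a copy of Bach1, a repressor at NRF2 target sites, rose 5.90-fold. No row with the symbol nfe2l2, that of NRF2 itself, was analysed here.

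Of antioxidant enzymes and related genes, 15 of 21 tested rows were lower and 6 higher in heat, beside 41.9% lower and 58.1% higher over all tested rows. The median log2 fold change was -1.18, against 1.13 for all tested rows. No listed row lay between -1 and 1 in the authors' values, so this gap mainly restates that most rows of the list fell. Carbonyl reductase Cbr1 fell from 180.5 ± 9.06 to 64.5 ± 4.08 FPKM (SD, n = 3), ferritin heavy chain fth1-a fell 2.72-fold, and the haem transporter slc48a1b fell 2.60-fold. TXNIP, which is an inhibitor of thioredoxin and not an antioxidant, fell 4.06-fold. Named after their values were seen, thioredoxin txn fell from 359 ± 9.78 to 169.8 ± 15.3 FPKM, the peroxiredoxin PRDX3 fell 2.29-fold, and another, PRDX1, fell from 23.4 ± 1.05 to 11.6 ± 1.41 FPKM. Among the rows that rose, TXNDC11 and Txndc5, also named after their values were seen, encode proteins of the endoplasmic reticulum. The other rising rows, named likewise, were both rows of MSRB3, at 3.03-fold and 2.79-fold, EPHX1 and a copy of ABCC4.

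Genes of glutathione synthesis and recycling went both ways, with 5 of 12 tested rows higher and 7 lower, beside 58.1% and 41.9% of all tested rows. Their median log2 fold change was -1.04, against 1.13 for all tested rows. With no listed row near 0, this gap mainly restates that more of these rows fell than rose. With median-of-ratios scaling 3 were higher and 7 lower. The gene chac1, whose product breaks down glutathione, rose from 5.38 ± 0.566 to 32.9 ± 1.99 FPKM (SD, n = 3). The mitochondrial glutaredoxin glrx5 rose 2.14-fold. MGST3, a membrane-bound enzyme that shares its first KEGG ortholog with gstr, gsto1, gstt2, GSTA1 and GSTA2, fell 2.11-fold, from 69.9 ± 2.02 to 33.1 ± 3.41 FPKM. Named after its value was seen, the cystine importer Slc7a11, which feeds glutathione synthesis, fell from 1.22 ± 0.0340 to 0.258 ± 0.163 FPKM. Counted by a first KEGG ortholog of K00799 or K23790, 7 listed rows are glutathione transferases, the 6 members other than Gstz1 together with MGST3, and all of them fell.

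Around sesn2, the list of sestrin, GATOR, mTORC1 and ATF4-CHOP genes had 27 of 38 tested rows higher and 11 lower, beside 58.1% and 41.9% of all tested rows, with a median log2 fold change of 1.25, close to the 1.13 of all tested rows. With median-of-ratios scaling 19 were higher and 11 lower. The stress transcription factor ATF5 rose 14.9-fold and 8.22-fold in its listed copies, the kinase gene eif2ak3, which senses protein misfolding in the endoplasmic reticulum, rose 7.54-fold, and a copy of atf4 rose 5.13-fold. Named after their values were seen, both copies of deptor, which encodes an inhibitor of mTORC1, fell, by 2.84-fold and 2.14-fold, and the autophagy kinase gene Ulk1 fell 3.96-fold. Among p53 targets and related genes, 3 rose and 6 fell of 9 tested, both sesn1 copies among the falls, beside 58.1% higher and 41.9% lower over all tested rows. Their median log2 fold change was -1.13. Tp53inp2 fell 3.85-fold and the nuclease gene AEN rose 9.01-fold. With median-of-ratios scaling 2 were higher and 6 lower.

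**Figure D4:**
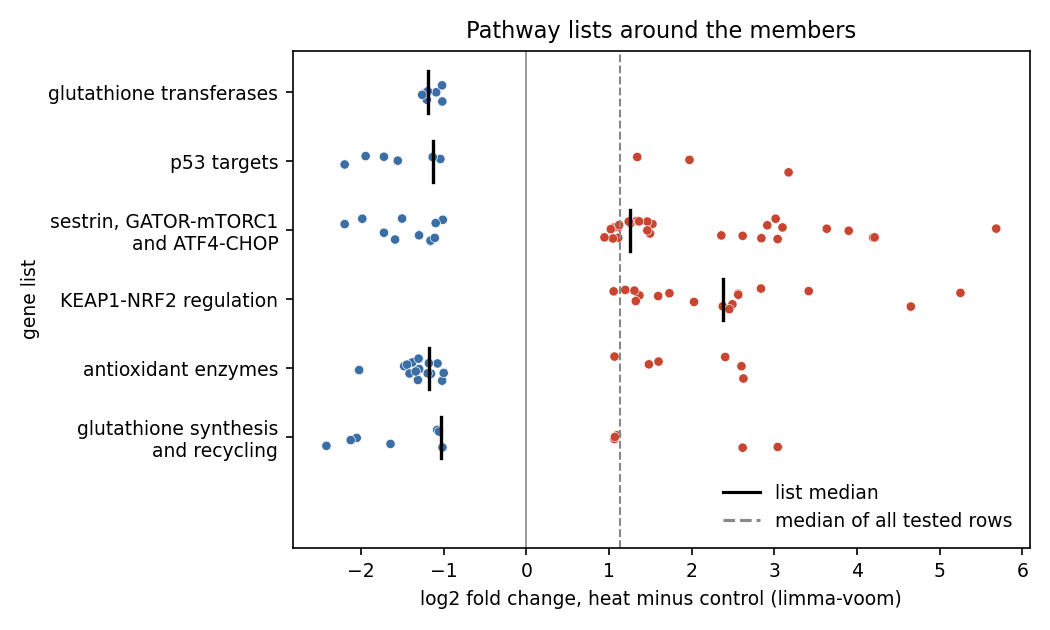
Log2 fold change (limma-voom, heat minus control) of each tested row in 5 pathway lists and of the 7 glutathione transferases, with list medians as black lines and the median of all tested rows, 1.13, as a dashed line. The 17 rows of KEAP1-NRF2 regulation lie above 0, whereas the transferases lie together near their median of -1.19.

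Read counts over the listed rows summed to between 1409460 and 1421082 in the control libraries and between 2663575 and 3586127 in the heat libraries, and the depth of whole libraries is unknown. As a check of the liver label, rbp4, which encodes a carrier protein secreted by hepatocytes, stood at 5950 ± 207 FPKM in control and 1998 ± 136 FPKM in heat (SD, n = 3). Of 8 tested hepatocyte marker rows, 5 were higher and 3 lower in heat, beside 58.1% higher and 41.9% lower over all tested rows. Their median log2 fold change was 2.04, against 1.13 for all tested rows. The summed level of the hepatocyte rows went from between 6143 and 6502 FPKM to between 2797 and 3009 FPKM. That fall was carried by rbp4. The sum of the other 7 rows, formed after their values were seen, went the opposite way, from between 415.9 and 431.7 FPKM to between 859.1 and 911 FPKM. Not all of these rows rose. Named after their values were seen, Tat and hnf4a fell with rbp4, whereas FGA, fga, APOB and the vtg1 rows rose. The single erythrocyte row, tfr1a, and the most abundant stroma row, col1a1b, were lower in heat, by 2.26-fold and 2.48-fold. Of 3 tested stroma and endothelium rows 1 was higher and 2 lower, beside the same shares of all tested rows.

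Beside the 58.1% of all tested rows that were higher in heat, myeloid rows were higher in 5 of 6 tested cases, and their summed level went from between 1.53 and 2.32 FPKM to between 11.8 and 14.2 FPKM, led by a copy of Cd163 at 6.52 ± 0.975 FPKM in heat. The cut description of that copy begins with "scavenge", and those of the other Cd163 rows with "deleted". Lymphocyte rows were higher in 4 of 5 tested cases, beside the same 58.1%, led in level by IL7R at 2.79 ± 0.0550 FPKM in heat. Their sums were 3.03 to 3.73 and 6.27 to 7.22 FPKM. The other rising lymphocyte rows all had the symbol CD22, with cut descriptions beginning "sialoadh" or "hemicent". Named after their values were seen, the lymphocyte row IGHG3 fell 3.65-fold and the myeloid row csf1r1 5.22-fold. These counts therefore need not stand for the named cell types. The biliary list had a single row, krt18, which was 2.01-fold higher and by itself does not show a change in biliary cells. Both tested pancreas rows were higher, among them gcg2 at 31.95 ± 1.04 FPKM in heat. Of 3 tested muscle rows 1 was higher and 2 lower. The most abundant, Tnni1, had 2.15 ± 0.389 FPKM and 205 reads in control, against 0.00867 FPKM and 1 read in heat. The part of these cell types in the changes of the members was not tested, and in bulk liver fewer cells of a type cannot be told apart from less RNA per cell.

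For each member the rows with the most similar profile were found by the root mean square difference of log2(FPKM + 0.1) over the 6 libraries, each profile centred on its mean. GSTA2 and gstt2 were each other's nearest row, with a difference of 0.0367. The closest to GSTP1 were MPST, tpi1b and rbp2, with differences from 0.0382 to 0.0387, and those closest to gstr were aldh9a1a, Tat and Hadha. For gsto1 they were bhmt, at 0.0170 the smallest difference for any member, Ddx39a and Etfb. PRDX3 and Fpgs followed gstt2 for GSTA2, and MAF1 and Fpgs followed GSTA2 for gstt2.

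The nearest rows of GSTA1 were gltp, fam102a and SSB, and those of Gstz1 were NTNG2, aspdh and ilf2. Profiles nearest to keap1b were those of GOLT1B, NLK and Golga2, with differences from 0.0258 to 0.0545. The profile of sesn2 had no close neighbour, and the nearest were igfbp1a, HSPA2 and CKAP4, at 0.214 to 0.226. Those of GSTENG00 were cited2, mylk3 and urod, at 0.192 to 0.235. Both members had few reads in a group, 10 in control for sesn2 and 22 in heat for GSTENG00. Whether counting noise set their larger differences was not tested. All differences given here are descriptions over 6 libraries that share the same 2 groups.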

How the data were processed

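Libraries were made from RNA of rainbow trout liver, per the labels' protocols. The submitters' processing notes name Bowtie2 2.2.8 as well as StringTie. No coordinates are printed, because the build, the annotation and the counting tool were not given in the sources used here. The table deposited by the authors is fixed-width text of 8 characters per column and gives a read count and an FPKM value per row and library, and the authors' log2 fold change and p-value, per the file headers. Symbols and descriptions are cut to 8 characters, and the authors' p-values are not printed because long exponents are cut as well. Of the 10 members, 6 have a symbol in the RefSeq table of assembly USDA_OmykA_1.1.

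Counts were tested with limma-voom (limma 3.58.1, R 4.3.3) on all rows with at least 10 counts in 3 libraries, with Benjamini-Hochberg adjustment over these 4766 rows. Other count models were not used, because the fixed-width layout did not allow the unit of the counts to be checked by code. Library totals were recovered as the median ratio of count to FPKM over 451 rows with at least 200 counts and 5 FPKM, and relative to control replicate 1 they were 0.999 and 1.02 for control and 1.55, 1.17 and 1.14 for heat. The fit was tested on simulated data. Sums and ratios used exact permutation tests (scipy 1.17.1), and other steps used Python 3.11.15, numpy 2.4.6, pandas 2.3.3 and matplotlib 3.10.9.

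The members and lists were chosen with earlier results of these data known. Named genes were all members, the 4 rows of each pathway list with the smallest p, the 3 rows most like each member and the most abundant row of each marker list, except where the text says otherwise; a gene that this rule names is not reported here. List members were matched by symbol, and 11 wrong matches were removed by identity after values had been seen. The alternatives were 3 library scalings, 2 count filters, 2 pseudocounts, a replicate block and leaving out each library.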

Additional observations from a re-analysis of the deposited data

How the results depend on the processing

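All 139 alternative values of the 10 members kept their direction and an adjusted p under 0.05 by limma or limma-voom. The largest was 0.0346 for keap1b with median-of-ratios scaling. Because the rows had been selected as changed, nearly all tested rows passed in most settings, for example 4766 of 4766 with a replicate block. With median-of-ratios scaling 3729 of 4766 passed. The passing of the members is therefore largely a property of the table here too. Over single libraries left out, log2 fold changes ran from -1.26 to -1.17 for GSTP1, from 1.01 to 1.16 for keap1b and from 4.51 to 5.43 for sesn2. The count of rows higher in heat was 2770 and became 1733 with median-of-ratios scaling, and that of rows lower in heat was 1996 and became 1201 with at least 50 counts in 3 libraries, where fewer rows are tested. With log2(FPKM + 1) the log2 fold change of sesn2 was 1.74, since a pseudocount of 1 exceeds its control level. The same-numbered libraries did not deviate together over the tested rows (correlations of 0.03, 0.01 and -0.01), so there was no sign that the numbers pair them. This check could not exclude a weak pairing or one that touches few genes. With a replicate block the log2 fold changes were -1.20 for GSTP1 and 1.08 for keap1b, 2770 rows were higher and 1996 lower, and no call of a member changed. Replicates of a group differed by more than counting noise, and depth limits sesn2, with 10 control reads, and GSTENG00, with 22 heat reads.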

Other observations

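Beyond the rows described above, some genes linked to the members by pathway were looked up after values had been seen. In tyrosine breakdown, where the product of Gstz1 acts, Tat, the first enzyme, fell from 229.7 ± 11.1 to 108.7 ± 3.43 FPKM (SD, n = 3), and FAH, the enzyme after Gstz1, fell from 69.8 ± 4.23 to 34.6 ± 3.06 FPKM, a 2.03-fold fall against 2.40-fold for Gstz1. A row without a symbol, whose cut description begins with the letters of glutathione and whose KEGG ortholog is that of glutathione peroxidase, rose from 49.9 ± 1.74 to 129.1 ± 4.38 FPKM, a 2.58-fold rise in the direction opposite to the transferases (limma-voom adjusted p = 1.27e-25). Both listed rows of lancl1, which encodes a glutathione-binding protein, fell, by 4.12-fold and 5.21-fold. The cut description of the row with the 4.12-fold fall begins with the letters of glutathione. The KEGG ortholog of both rows, K25210, was not among those counted as transferases.

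The aryl hydrocarbon receptor gene ahr1a fell from 5.10 ± 0.760 to 2.46 ± 0.411 FPKM (SD, n = 3), and its target genes cyp1a1 and cyp1a3 fell 3.20-fold and 2.36-fold, all looked up after their values were seen. In the xenobiotic class of the authors' annotation, 21 of 26 tested rows were lower and 5 higher, beside 41.9% and 58.1% of all tested rows. Without the transferases that are members 15 of 20 were lower, with a median log2 fold change of -1.21 against 1.13 for all tested rows. With no listed row near 0, that gap mainly restates the direction of most rows. The liver transcription factor gene hnf4a fell from 15.3 ± 1.41 to 3.60 ± 0.988 FPKM.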
